A study of Mus musculus with 33 samples.

Results

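The genes described here encode the nuclear part of the mitochondrial respiratory chain in the liver and kidney of mice given tunicamycin (TM), a drug that causes endoplasmic reticulum (ER) stress by blocking N-linked glycosylation. A gene was a member if it was protein coding, if its symbol began with Nduf followed by a, b, c, s or v, with Uqcr, with Cox4 to Cox8 or with Atp5, or was Sdha, Sdhb, Sdhc or Sdhd, and if its mean normalized count was at least 5 in each of the 6 deposited tables. Of 50420 gene identifiers in the tables, 14695 had such a mean in all 6, and 86 of these were members. They comprised 44 genes of complex I, 4 of complex II, 8 of complex III, 13 of complex IV and 17 of complex V, and 76 of the 86 encode structural subunits or their isoforms. The other 10 were 8 assembly factors of complex I (the Ndufaf genes), Cox7a2l, which helps complexes III and IV associate, and Atp5s, a coupling factor of ATP synthase. A further 7 genes with matching symbols were in too few tables or had too low a mean (Cox4i2, Cox6a2, Cox6b2, Cox7b2, Cox8b, Cox8c and Ndufa4l2). Cyc1, Atpif1 and Usmg5 also belong to or act on these complexes, but their symbols in the annotation used here did not match the rule.

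The inner mitochondrial membrane carries 5 respiratory complexes. Complex I (NADH dehydrogenase) and complex II (succinate dehydrogenase, which is also an enzyme of the tricarboxylic acid cycle) pass electrons to ubiquinone. Complex III (cytochrome bc1) and complex IV (cytochrome c oxidase) pass them on to oxygen by way of cytochrome c, and complex V (ATP synthase) uses the proton gradient that complexes I, III and IV build. Mitochondrial DNA encodes 13 of the proteins, in all complexes except complex II. All others are made in the cytosol from nuclear genes and imported, so each complex apart from complex II is assembled from the products of both genomes. Hepatocytes and the cells of the kidney proximal tubule are both rich in mitochondria.

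Male mice of C57BL/6J (B6), CAST/EiJ (CAST) and their F1 hybrid (B6 mothers, CAST fathers), aged 15 to 23 weeks, were injected intraperitoneally with TM at 1 mg/kg or with its vehicle, dimethyl sulfoxide (control). The labels give 24 hours from injection to collection, whereas the study's methods give a shorter time, so the interval is not certain. Total RNA depleted of ribosomal RNA was sequenced from 33 samples in 12 groups: 3 samples of TM and 3 of control in each kidney group, and in liver 2 TM and 3 control for B6 and F1 and 3 TM and 2 control for CAST. By the study's methods, samples that did not cluster with their treatment were removed, and the 3 liver groups of 2 samples are those left with fewer. B6 and CAST reads were aligned to the genome of their own strain and F1 reads, with another aligner, to a B6 genome masked at the sites where the strains differ, and each of the 6 tables was normalized apart, so levels were not tested across tables.

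Markers of the drug response and of the tissue followed the labels. Samples that did not cluster with their treatment had been removed, so the drug response is not an independent check of the treatment labels. Hspa5, the main ER chaperone, had a log2 fold change (Log2FC, TM against control) of 3.67 to 5.35 and Ddit3, a transcription factor of the unfolded protein response, of 6.30 to 6.93 across the 6 comparisons. The 6 hepatocyte markers summed to 11940 to 88250 CPM (counts scaled to library size) in liver and 581 to 1964 in kidney, and the 5 proximal tubule markers to 11190 to 29330 CPM in kidney and at most 18.6 in liver. Libraries held 3355262 to 23094521 reads assigned to genes. In 5 of them, receptor genes of smell and pheromone sensing, silent in most tissues, took over 400 CPM outside repeat-like gene models: B6 liver control 2 and TM 3, F1 liver control 2 and TM 2, and F1 kidney control 1, which was also the smallest library. Repeat-like models took 82.9% of the reads of F1 liver control 2. Without them the median Log2FC of the members, described next, was −0.43 in B6 liver, −0.72 in F1 liver and 0.06 in F1 kidney. Call counts and interactions are also given without them, whereas medians of single complexes and lists are given with all libraries only.

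Normalized counts of most of these genes were lower in TM samples in 5 of the 6 comparisons, and in F1 kidney they were not. The share of assigned reads that fell on the members overlapped between TM and control libraries in B6 liver, F1 liver and F1 kidney. The median Log2FC of the 86 genes was −0.43 in B6 liver, −0.48 in CAST liver, −0.77 in F1 liver, −0.40 in B6 kidney, −0.36 in CAST kidney and 0.10 in F1 kidney. Over all genes tested the same medians were 0.09, −0.04, 0.21, −0.01, −0.05 and −0.13. Of the 86 genes, 79, 82, 82, 86, 76 and 27 had a negative Log2FC in these comparisons, 24 had one in all 6, and 68 had one in the 5 comparisons other than F1 kidney. The 86 genes were measured in the same libraries, so these counts are not independent observations. In bulk tissue, fewer cells of a type and less RNA per cell cannot be told apart.

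Fewer genes passed the test on their own. A gene was called where its Benjamini-Hochberg adjusted p in limma was below 0.05 and its change at least 1.5-fold, and 27 calls were made in 516 tests of members, all of them lower in TM. The calls fell on 19 genes: Sdhd was called in 5 comparisons, Atp5k in 3, Sdha and Ndufa9 in 2 each and the other 15 in 1 each, while 67 genes were called in none. In B6 liver 2 of 86 genes were called lower (6.45% of all genes tested were) and 0 higher (4.8%). In CAST liver 9 were called lower (10.4% of all genes) and 0 higher (11.1%), and in F1 liver 3 were called lower (4.15%) and 0 higher (3.42%). In B6 kidney 11 were called lower (7.77%) and 0 higher (9.73%), in CAST kidney 2 lower (4.7%) and 0 higher (8.69%), and in F1 kidney 0 lower (2.57%) and 0 higher (7.54%). As a share of the 86, the calls lower exceeded the background in B6 kidney, were close to it in CAST and F1 liver and lay under it in the others, and none of these shares was tested. At an unadjusted p below 0.05, 10 of the 86 genes were lower in B6 liver (12.7% of all genes were), 27 in CAST liver (17.4%) and 33 in F1 liver (9.82%). In B6 kidney 58 were lower at that level (16.1% of all genes), in CAST kidney 10 (12%) and in F1 kidney 0 (9.45%), where 3 were higher.

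**Figure D1:**
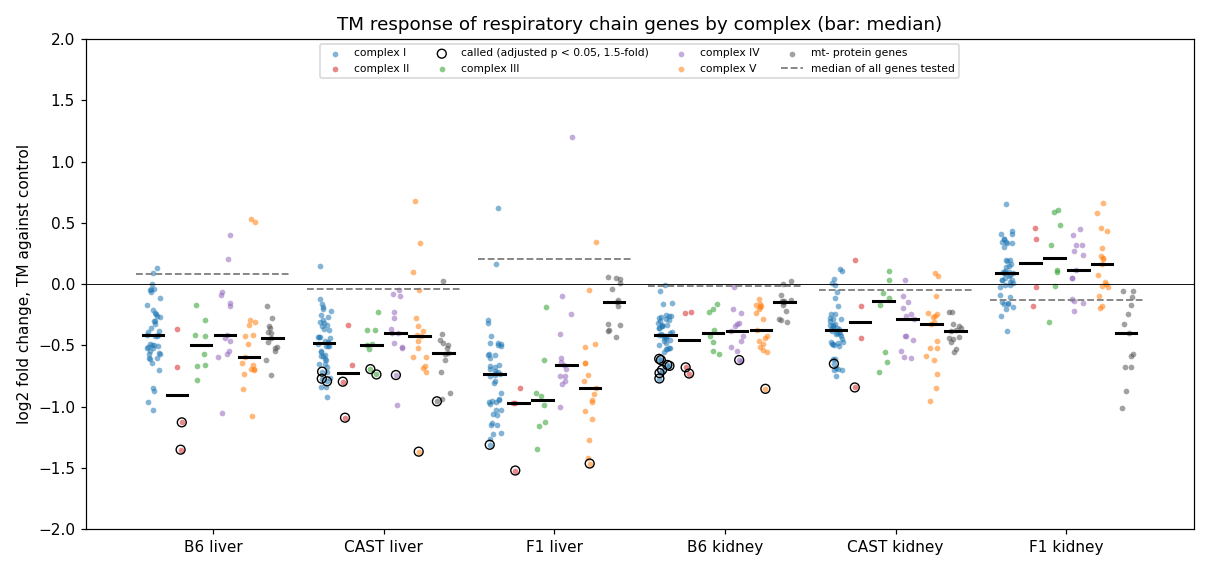
Log2FC (TM against control, y axis) of each of the 86 nuclear genes by complex and of the 13 mt- protein genes in the 6 comparisons (x axis); each point is a gene, black bars are medians, circles mark called genes and the dashed line is the median of all genes tested. The medians of all 5 complexes lie below 0 except in F1 kidney, where they lie between 0.09 and 0.22 while that of the mt- genes is −0.40.

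Promoters are shown for the 4 genes called in more than 1 comparison, since factors that drive respiratory chain genes are known to bind close to their start sites. RefSeq promoter windows (GRCm38.p6, 250 bases before to 50 after the start of transcription) were matched by symbol for 71 of the 86 genes and searched on both strands for 7 motifs, none of which contains another. The core of the NRF1 site (CGCATGCG) was found in 10 of the 71 windows (14.1%) and in 1.91% of all 27025 windows of that length. A YY1 site (AAGATGGC) was found in 9 (12.7%, against 2.88%), an ETS site as bound by GABPA (CCGGAAGT) in 5 (7.04%, against 4%), an ERR element (CAAGGTCA) in 4 (5.63%, against 1.53%) and a cyclic AMP response element (TGACGTCA) in 4 (5.63%, against 1.88%). The composite site of C/EBP and ATF factors (TGATGCAA) and the ER stress response element (CCAAT and CCACG 9 bases apart) were found in 0 members and in 0.929% and 0.130% of all windows. A match describes the letters and is not evidence of binding. In the lines here, 5′ to 3′ on the strand of the gene, capitals mark the match. Sdhd (chr9:50603800-50604099, minus strand) holds the ERR element from base 287, and Atp5k (chr5:108434350-108434649, minus strand) the NRF1 core from base 202. Ndufa9 (chr6:126849095-126849394, minus strand) holds the YY1 site from base 280, and Sdha (chr13:74350191-74350490, minus strand) none of the 7.
Sdhd: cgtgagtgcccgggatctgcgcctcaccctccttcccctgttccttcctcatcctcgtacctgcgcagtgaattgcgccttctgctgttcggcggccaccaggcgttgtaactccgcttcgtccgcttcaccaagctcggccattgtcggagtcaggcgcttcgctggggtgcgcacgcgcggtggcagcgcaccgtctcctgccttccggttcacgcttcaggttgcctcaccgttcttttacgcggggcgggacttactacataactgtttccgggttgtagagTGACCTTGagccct
Atp5k: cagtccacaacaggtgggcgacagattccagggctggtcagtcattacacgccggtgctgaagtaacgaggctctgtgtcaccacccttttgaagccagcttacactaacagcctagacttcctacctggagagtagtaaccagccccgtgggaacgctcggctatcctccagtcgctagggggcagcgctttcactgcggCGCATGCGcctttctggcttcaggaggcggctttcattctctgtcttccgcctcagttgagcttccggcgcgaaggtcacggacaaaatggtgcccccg
Ndufa9: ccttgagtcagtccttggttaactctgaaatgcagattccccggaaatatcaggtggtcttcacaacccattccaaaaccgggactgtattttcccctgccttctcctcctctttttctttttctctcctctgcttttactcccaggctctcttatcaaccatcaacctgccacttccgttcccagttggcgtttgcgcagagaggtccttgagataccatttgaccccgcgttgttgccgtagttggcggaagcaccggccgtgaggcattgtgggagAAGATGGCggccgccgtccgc
Sdha: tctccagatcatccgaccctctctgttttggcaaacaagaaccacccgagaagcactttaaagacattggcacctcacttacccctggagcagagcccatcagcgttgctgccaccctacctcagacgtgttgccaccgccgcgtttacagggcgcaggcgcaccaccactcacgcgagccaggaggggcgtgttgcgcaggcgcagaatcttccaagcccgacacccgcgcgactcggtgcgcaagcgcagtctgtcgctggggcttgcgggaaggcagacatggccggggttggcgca

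The ERR element of Sdhd, at chr9:50603806-50603813, also lies in the window of Timm8b, a chaperone of protein import that is transcribed the other way from a start at base 50603901, against 50603849 for Sdhd. Timm8b was called in none of the 6 comparisons, with a Log2FC of −0.08, −0.50 and −0.42 in B6, CAST and F1 liver and −0.60, −0.69 and −0.26 in the kidneys.

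Complex II had the lowest median Log2FC of the 5 complexes in the 3 livers and in B6 kidney, but not in CAST or F1 kidney. All 4 of its subunits are nuclear: Sdha carries the flavin where succinate is oxidized, Sdhb carries iron-sulfur clusters, and Sdhc and Sdhd anchor the enzyme in the membrane. Its median Log2FC was −0.90 in B6 liver, −0.73 in CAST liver, −0.97 in F1 liver, −0.46 in B6 kidney, −0.31 in CAST kidney and 0.17 in F1 kidney.

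Sdhd fell in 5 comparisons. In B6 liver it had 1013 and 848 normalized counts in the TM samples and 2555, 1842 and 2809 in the controls. In CAST liver the TM samples had 1058, 1197 and 978 and the controls 2050 and 2546, and in F1 liver the TM samples had 682 and 544 and the controls 1947, 1370 and 2003. TM and control samples did not overlap in any of the livers. The Log2FC was −1.35 ± 0.30 in B6 liver (SE, adjusted p = 0.016), −1.09 ± 0.22 in CAST liver (adjusted p = 0.0062) and −1.52 ± 0.42 in F1 liver (adjusted p = 0.027). In B6 kidney Sdhd had 1690, 1775 and 1617 in TM and 3074, 2608 and 2755 in controls, a Log2FC of −0.73 ± 0.11 (adjusted p = 0.0013). CAST kidney had 2079, 1773 and 1487 in TM and 3988, 2726 and 2910 in controls, a Log2FC of −0.84 ± 0.21 (adjusted p = 0.027). F1 kidney was the exception, with 1684, 1323 and 1404 in TM and 1316, 1938 and 1780 in controls. These overlapped, and the Log2FC of −0.18 did not pass the test. The call held in all 15 alternatives in CAST liver and all 16 in B6 kidney, in 12 of 16 in B6 liver, 10 of 16 in F1 liver and 11 of 16 in CAST kidney. It was lost without B6 liver control 1, control 3 or TM 3, without F1 liver control 1, control 3, TM 1 or TM 2, and without CAST kidney control 2, control 3, TM 2 or TM 3.

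Sdha was called lower in B6 and CAST liver and in none of the kidneys, and its tissue by treatment interaction did not pass (adjusted p = 0.107 in B6 and 0.144 in CAST). The 2 TM samples of B6 liver had 2022 and 2428 and the controls 4724, 4324 and 5549, a Log2FC of −1.13 ± 0.29 (adjusted p = 0.033). CAST liver had 2564, 2087 and 2300 in TM and 3831 and 4193 in controls, a Log2FC of −0.80 ± 0.22 (adjusted p = 0.026). Both calls depended on most of their libraries, being lost without B6 liver control 1, control 3, TM 1 or TM 3 and without CAST liver control 2, control 3, TM 2 or TM 3. F1 liver had 2277 and 1168 against 3910, 2219 and 3772, which overlapped. In B6 kidney the TM samples had 7721, 8017 and 6230 and the controls 10610, 7960 and 7278, and in F1 kidney 5423, 4871 and 4085 against 1914, 4933 and 4412. The kidney groups overlapped in all 3 genotypes, with a Log2FC of −0.22, 0.19 and 0.46 in B6, CAST and F1. The lowest F1 control is the library with the fewest reads. Sdhc was called in B6 kidney (1576, 1525 and 1458 against 2761, 2176 and 2394, Log2FC −0.68 ± 0.12, adjusted p = 0.0027), and Sdhb in no comparison (Log2FC −0.85 in F1 liver to 0.37 in F1 kidney).

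Among the genes that serve complex II without being part of it, Sdhaf4, an assembly factor of its flavoprotein, was called lower in CAST liver (Log2FC −1.16), F1 liver (−1.62) and B6 kidney (−1.05). The other enzymes of the tricarboxylic acid cycle, a list of 13 genes, had medians of −0.44, −0.42 and −0.50 in B6, CAST and F1 liver and −0.20, 0.07 and 0.43 in the kidneys. Of the 13, 1, 3, 0, 1, 0 and 0 were called lower and 0, 1, 0, 0, 0 and 0 higher, in the same order. Of all genes, 6.45, 10.4, 4.15, 7.77, 4.7 and 2.57% were called lower and 4.8, 11.1, 3.42, 9.73, 8.69 and 7.54% higher. Suclg2, a subunit of succinyl-CoA ligase, was called lower in B6 and CAST liver (−1.13 and −0.99), and Dlst, of the oxoglutarate dehydrogenase complex, in CAST liver and B6 kidney (−0.98 and −0.64).

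**Figure D2:**
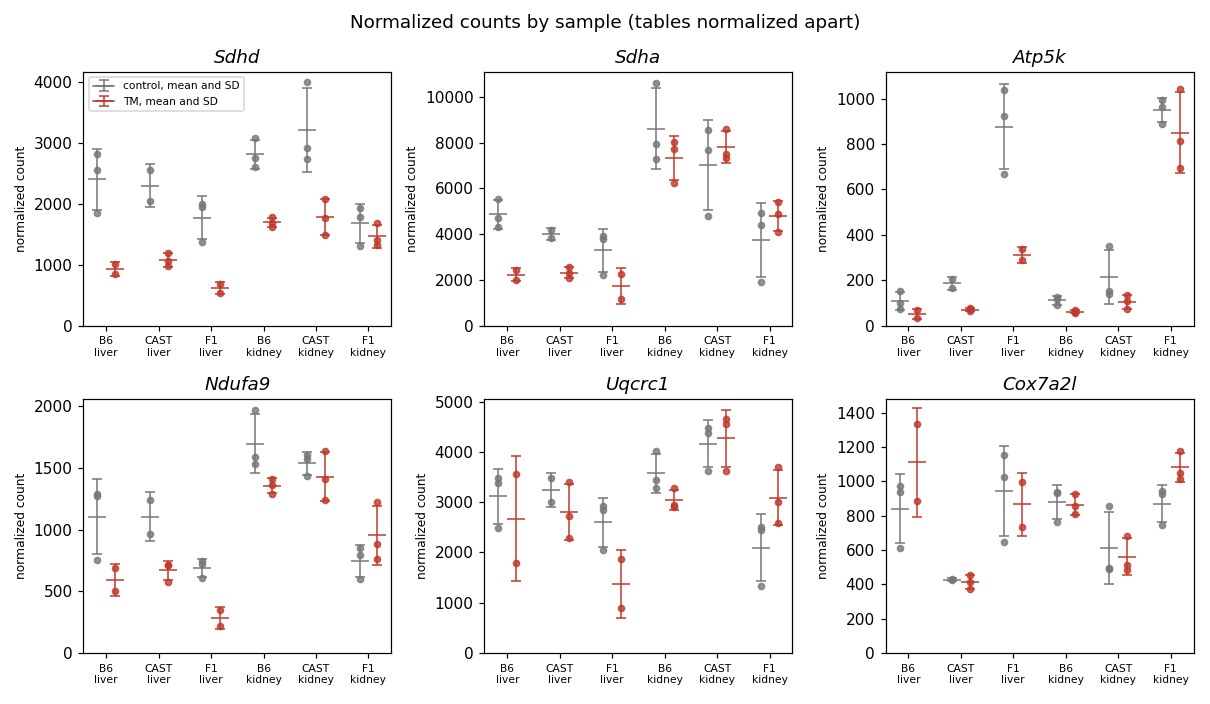
Normalized counts (y axis, linear, from 0) of Sdhd, Sdha, Atp5k, Ndufa9, Uqcrc1 and Cox7a2l in every sample of the 6 tables (x axis), with controls in gray and TM samples in red; bars give the mean and SD of each group. The TM samples of Sdhd lie below all controls everywhere but in F1 kidney, and those of Cox7a2l overlap the controls in all groups except F1 kidney, where they lie above.

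Complex V held the gene with the lowest mean Log2FC over the 6 comparisons, Atp5k (−0.98), which encodes subunit e of the membrane part, where ATP synthase forms dimers. In CAST liver it had 73.1, 64.7 and 77.2 normalized counts in TM and 166 and 208 in controls, a Log2FC of −1.37 ± 0.25 (adjusted p = 0.0043). In F1 liver it had 338 and 289 in TM and 1039, 670 and 923 in controls (−1.46 ± 0.40, adjusted p = 0.026), and in B6 kidney 55.8, 59.3 and 69.0 in TM and 119, 90.7 and 128 in controls (−0.85 ± 0.20, adjusted p = 0.012). No TM sample reached a control in these groups or in B6 liver (68.6 and 34.8 against 152, 72.8 and 102) and CAST kidney (134, 107 and 72.0 against 353, 140 and 155). In the last 2 the test was not passed, with a Log2FC of −1.07 and −0.96. F1 kidney again overlapped, with 1044, 694 and 814 in TM and 889, 962 and 993 in controls. Atp5k has few reads in the B6 and CAST tables, and its call held in all 15 alternatives in CAST liver, in 15 of 16 in B6 kidney (lost without control 3) and in 10 of 16 in F1 liver (lost without control 1, control 3, TM 1 or TM 2).

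The other 16 genes of complex V were called in no comparison. Atp5a1 and Atp5b, the alpha and beta subunits of the catalytic head and the most abundant members, were among them. The Log2FC of Atp5a1 was −0.73, −0.59 and −0.90 in the livers of B6, CAST and F1 and −0.19, 0.07 and 0.58 in their kidneys. That of Atp5b was −0.33, −0.39 and −0.74 in the livers and −0.16, 0.09 and 0.66 in the kidneys. Atp5a1 in B6 liver had 8131 and 7059 in TM and 12929, 10222 and 15041 in controls, which did not overlap. In F1 kidney it had 16518, 12704 and 11278 against 5934, 11374 and 10470, and there the lowest TM value lay below the highest control. The 3 genes that encode the same proton-carrying subunit c did not move alike in value: Atp5g1 had a Log2FC of 0.53 in B6 liver and 0.33 in CAST liver, Atp5g2 of −0.31 and 0.10, and Atp5g3 of −0.42 and −0.05. Atp5g1 was the only member above all controls in B6 liver, with 1060 and 858 in TM and 775, 517 and 719 in controls. Atp5s was the only one in CAST liver, with 68.5, 66.5 and 64.8 in TM and 51.8 and 32.7 in controls. Neither passed the test.

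Complex I holds the most genes. Its median Log2FC over 44 genes was −0.42, −0.48, −0.73, −0.41, −0.38 and 0.09 in B6, CAST and F1 liver and B6, CAST and F1 kidney. The 7 core genes, which hold the flavin and the iron-sulfur clusters in the matrix arm, had medians of −0.49 (B6), −0.50 (CAST) and −0.94 (F1) in liver, and the 29 accessory genes of −0.42, −0.49 and −0.75. In liver, 3 genes of complex I were called. Ndufs1, the largest iron-sulfur subunit, had 1032, 805 and 807 in TM and 1485 and 1549 in controls of CAST liver (Log2FC −0.79 ± 0.22, adjusted p = 0.027; lost without control 2, control 3, TM 2 or TM 3). Ndufv2, which carries an iron-sulfur cluster beside the flavin, was also called there (−0.77 ± 0.22, adjusted p = 0.033; lost without any library but TM 2). Ndufa9, an accessory subunit at the joint of the matrix and membrane arms, had 580, 715 and 715 in TM and 963 and 1243 in controls of CAST liver (−0.71 ± 0.23, adjusted p = 0.047), a call lost on leaving out any 1 of the 5 libraries. In F1 liver Ndufa9 had 346 and 222 in TM and 724, 606 and 744 in controls (−1.31 ± 0.40, adjusted p = 0.047), and that call was lost without any library but control 2.

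Calls in B6 kidney fell mostly on other genes of complex I: Ndufb3, Ndufb4, Ndufb7, Ndufb8, Ndufa13, Ndufv3 and the assembly factor Ndufaf6 were called there, with a Log2FC from −0.77 ± 0.16 (Ndufb3, adjusted p = 0.007) to −0.61 ± 0.15 (Ndufaf6, adjusted p = 0.015). The Ndufb genes encode accessory subunits of the membrane arm. Ndufb8 had 1046, 851 and 888 in TM and 1730, 1302 and 1503 in controls (−0.70 ± 0.14, adjusted p = 0.0048), a call that held in all 16 alternatives. The call of Ndufb3 also held on leaving out any 1 library, and each of the other 5 was lost without at least 1. Across the 6 comparisons Ndufb8 had the lowest mean Log2FC of complex I (−0.67), and in F1 kidney its Log2FC was −0.16. Ndufs1 in B6 kidney had 2987, 2930 and 2758 against 3891, 3301 and 3239, with a Log2FC of −0.26 that did not pass. Core genes were called in CAST liver and Ndufb genes in B6 kidney, and the difference between these sets was not tested.

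The assembly factors are not part of the finished enzyme, and 2 of the 8 were called, each once: Ndufaf6 in B6 kidney and Ndufaf7 in CAST kidney. Ndufaf7 had 203, 192 and 170 in TM and 337, 276 and 277 in controls there (Log2FC −0.65 ± 0.17, adjusted p = 0.034), and the call was lost on leaving out any 1 of the 6 libraries. Ndufaf4 was the member with the highest mean Log2FC (0.22). In F1 liver it had 428 and 424 in TM and 330, 182 and 353 in controls, and it was the only member above all controls in that comparison, without passing the test. Over the 10 members that are not structural subunits the median Log2FC was −0.05 in B6 liver, −0.33 in CAST liver and −0.45 in F1 liver, and over the 76 structural ones −0.49, −0.48 and −0.81. In the kidneys of B6, CAST and F1 the former had medians of −0.37, −0.36 and 0.06 and the latter of −0.40, −0.36 and 0.10.

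Complex III was called only in CAST liver. Uqcrh, the hinge protein near the docking site of cytochrome c, had 314, 430 and 400 in TM and 598 and 666 in controls (Log2FC −0.74 ± 0.23, adjusted p = 0.044). Uqcrc2, a core protein on the matrix side, had 1360, 1384 and 1337 against 2029 and 2383 (−0.69 ± 0.21, adjusted p = 0.038), a call lost on leaving out any 1 library. The Uqcrh call held in 7 of 15 alternatives and was lost without any library but TM 2. Uqcrc1, the partner of Uqcrc2, had a Log2FC of −0.23 in CAST liver and −0.99 in F1 liver, and Uqcrfs1, the Rieske iron-sulfur protein, of −0.53 and −0.89, none of them called. Cyc1, the cytochrome c1 subunit outside the symbol rule, was also called in none, with a Log2FC of −0.45, −0.37, −0.95, −0.30, −0.15 and 0.46 in B6, CAST and F1 liver and B6, CAST and F1 kidney. The median of the 8 members in the same order was −0.50, −0.49, −0.95, −0.40, −0.14 and 0.22.

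Complex IV had medians of −0.41, −0.40, −0.66, −0.38, −0.29 and 0.11. Cox7b, a small structural subunit, was called in CAST liver, where it had 291, 408 and 321 in TM and 601 and 528 in controls (Log2FC −0.74 ± 0.23, adjusted p = 0.046). That call held in 7 of 15 alternatives and was lost without any library but TM 2. Ndufa4, first described as a subunit of complex I and now placed in complex IV, was called in B6 kidney (−0.62 ± 0.16, adjusted p = 0.017; lost without control 3 or TM 2). Cox4i1, the general isoform of a subunit that binds ATP, was not called, with 4095 and 1974 in TM and 4002, 2226 and 3731 in controls of B6 liver. Cox7a2l had the highest mean Log2FC of the complex (0.08). Its TM and control values overlapped in 5 comparisons, as in CAST liver with 414, 454 and 374 against 432 and 423.

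Isoforms of complex IV known from heart and skeletal muscle were low in these tissues. Cox7a1 was the only such isoform to pass the rule, and it ran in liver between 1.73 and 28.9 normalized counts. In F1 liver it had 11.1 and 28.9 in TM and 4.17, 11.5 and 7.83 in controls (Log2FC 1.198, not called), and the 3 skeletal muscle markers there summed to 20.2 to 68.2 CPM in TM and 0.236 to 2.25 in controls. Their part in this value was not tested. In CAST kidney Cox7a1 had 272 in control 1 and 72.8 to 162 in the other 5 samples. Cox6a2 had means of 27.4 in TM and 2.25 in controls of B6 liver and of 4.49 and 0.959 in CAST liver, too low for the rule. Cox8b, which brown fat also uses, had means of 132 in TM and 82.8 in controls of CAST kidney, where the brown fat markers Ucp1 and Cidea summed to 85.3 to 200.1 CPM in TM and 8.70 to 125 in controls.

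**Figure D3:**
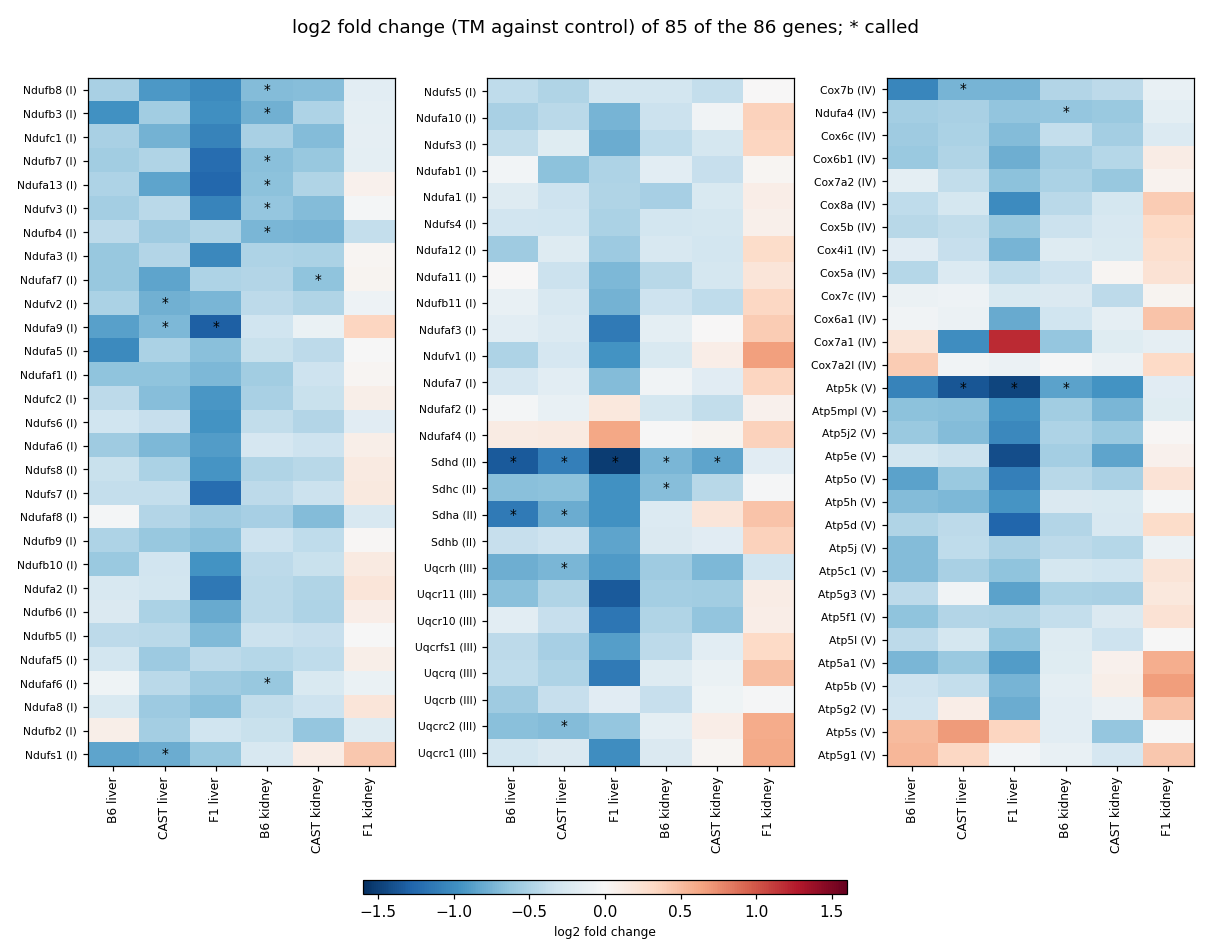
Log2FC (TM against control) of 85 of the 86 genes (rows, with their complex in brackets, ordered within complex by mean) in the 6 comparisons (columns), in color from −1.6 (blue) to 1.6 (red); asterisks mark the 27 calls. The first 5 columns are blue for most genes, Sdhd carries 5 asterisks and Atp5k 3, and the F1 kidney column is pale or red with no asterisk.

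The number of members whose TM and control samples did not overlap was counted in each liver, and none of the 86 genes passed the test of genotype by treatment there. In B6 liver 16 of the 86 genes (18.6%) had every TM sample below every control, against 19.9% of all genes, and 1 had every TM sample above (18.2% of all genes). In CAST liver 42 (48.8%) lay below, against 25.6%, and 1 above (25.4%). In F1 liver 64 (74.4%) lay below, against 15.9%, and 1 above (15.2%). The shares follow the number of samples as well as the size of the change, and 12 genes lay below in all 3 livers. The hepatocyte markers, of which Alb made up most, summed to 80540 to 88250 CPM in controls and 54400 to 63850 in TM in B6 liver, 59280 to 78940 and 43910 to 55040 in CAST liver, and 11940 to 61960 and 24020 to 40940 in F1 liver, where control 2 and its repeat-like reads set the lowest control. Of the 6 markers, 5 had every TM sample below every control in B6 liver (all but Cps1), 3 in CAST liver (Alb, Apoa1 and Ttr) and 0 in F1 liver, and none had every TM sample above. All 6 of these markers were above 0 in every liver library. Their part in the lower counts of the respiratory chain genes was not tested.

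The number of calls in liver turned on single libraries. In B6 liver it was 0 without control 1, control 3 or TM 3, 1 without TM 1 and 18 without control 2. The median Log2FC there was −0.14 without TM 3 and −0.72 without TM 1. In CAST liver the count was 2 without control 2, control 3 or TM 3, 4 without TM 1 and 15 without TM 2. In F1 liver it was 29 without control 2 and 0 without any of the other 4 libraries. Without the libraries rich in receptor reads, 28 genes were called lower and 1 (Atp5s) higher in B6 liver (19.1% of all genes were called lower), and 59 lower and 0 higher in F1 liver (16.4%). In both, only 1 TM sample then remains and is assumed to vary like the rest, and fits of the tissue interaction without these libraries rest on the same sample. On reads recovered from the tables, edgeR called 2 genes lower in B6 liver (4.98% of all genes), 12 in CAST liver (11.9%) and 10 in F1 liver (5.14%). DESeq2 called 6 (8.78%), 18 (12.2%) and 31 (6.75%). In the fits that left out 1 library, 3.88%, 8.36% and 3.03% of all genes were called lower without B6 liver control 1, 2 or 3. That share was 9.42%, 8.98% and 6.54% without CAST liver TM 1, 2 or 3. It was 1.79%, 9.75% and 1.54% without F1 liver control 1, 2 or 3.

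In B6 kidney every one of the 86 genes had a negative Log2FC, the lowest that of Atp5k (−0.85) and the one nearest to 0 that of Ndufaf4. In 58 genes (67.4%) every TM sample lay below every control, against 18.7% of all genes, and in 0 genes every TM sample lay above (20.3% of all genes). The members took 1.09 to 1.23% of assigned reads in the controls and 0.854 to 0.954% in TM, which did not overlap. The change was small for each gene: 31 genes passed the adjusted p alone and 11 of them reached 1.5-fold. The count of calls was 8 to 17 on leaving out any library but control 2 (5.68 to 7.69% of all genes were called lower), and 26 without that library (5.94%). The replicate numbers of this table were taken as pairing the samples, because same-numbered samples deviated together. The blocked fit also called 11, with 9.97% of all genes called lower. The summed proximal tubule markers were 25230 to 29330 CPM in the B6 kidney controls and 11320 to 15440 in TM, all 5 markers had every TM sample below every control, and their part in these values was not tested.

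In CAST kidney 76 genes had a negative Log2FC and 11 (12.8%) had every TM sample below every control, against 14.9% of all genes, while 0 lay above (18% of all genes). Sdhd and Ndufaf7 were called. The replicate numbers were taken as pairing the samples here too, and with the replicate as a block 18 genes were called lower, against 9.74% of all genes. The share of members thus lay over the background in this fit and under it in the fit without the block. Control 1 stood apart: the median over members of its log2 ratio to the mean of the other 2 controls was 0.96 in the 43 genes with the shorter transcripts and 0.59 in the 43 with the longer ones. TM 1 deviated the same way from the other 2 TM samples, by 0.52 and 0.41. Cox4i1 had 11843 normalized counts in control 1, 5775 and 5863 in the other controls and 8119, 5928 and 4981 in TM. The median Log2FC of the members was −0.11 without control 1 and −0.53 without TM 1. Without control 1, 1 gene was called (5.61% of all genes were called lower). The count was also 1 without TM 1 (2.9% of all genes), and 0 without any of the other 4 libraries (2.08 to 3.24%). Of the 5 proximal tubule markers, Kap, an androgen-regulated kidney protein, had every TM sample below every control (5307 to 7417 CPM against 11680 to 23210), and the other 4 (Slc34a1, Lrp2, Slc22a6 and Slc5a2) overlapped.

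F1 kidney went the other way in value, without a call. Of its 86 genes 27 had a negative Log2FC, 0 had every TM sample below every control (14.1% of all genes) and 15 (17.4%) had every TM sample above, against 19.5% of all genes. These 15 include subunits of every complex, among them Ndufv1, Sdhb, Uqcrc1, Uqcrc2, Cox5b, Cox8a, Atp5b, Atp5g1 and Atp5g2. Uqcrc1 had 3692, 2997 and 2592 in TM and 1329, 2515 and 2451 in controls, a Log2FC of 0.60. The lowest adjusted p of any member was 0.177 (Uqcrq, with 935, 698 and 906 against 681, 520 and 617). Neither edgeR nor DESeq2 called a member here. Control 1, which holds 3355262 reads and is rich in receptor reads, was the lowest control for many of these genes (Atp5b had 8090 in it, against 17394 and 16318 in the other controls and 25682, 20421 and 17409 in TM). Without it the median Log2FC of the members was 0.06. The direction of the median turned on TM 1, without which it was −0.03, and it was 0.22 without TM 2. Of the proximal tubule markers, Kap alone had every TM sample below every control (7026 to 9232 CPM against 13460 to 15310), and the other 4 overlapped.

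**Figure D4:**
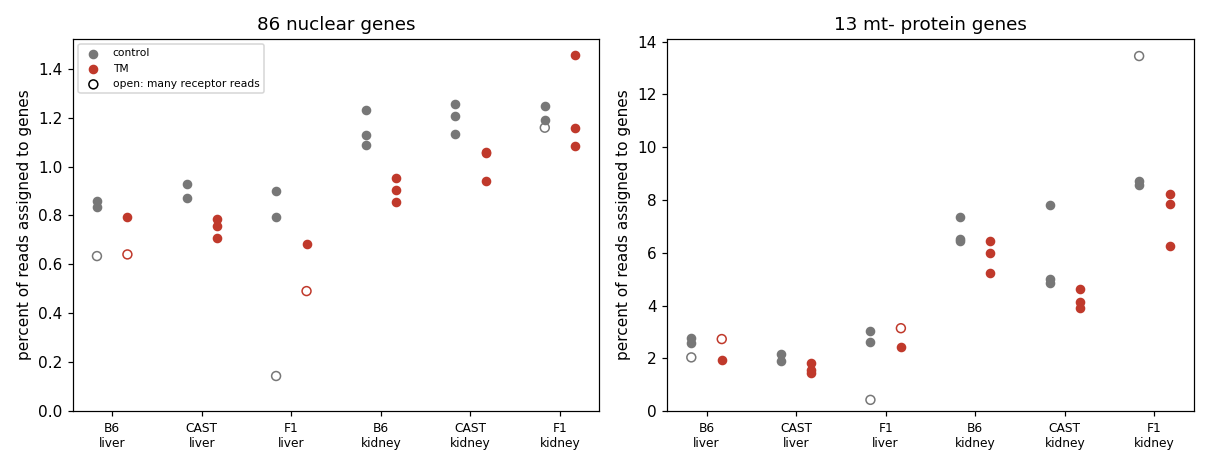
Percent of reads assigned to genes (y axes, from 0) that fell on the 86 nuclear genes (left) and on the 13 mt- protein genes (right) in each library of the 6 tables (x axis), controls in gray and TM in red; open circles mark the 5 libraries rich in receptor reads. In kidney of B6 and CAST and in CAST liver the TM libraries hold a smaller share of nuclear reads than all controls, and F1 liver control 2 holds the smallest, 0.143%.

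Whether the response differed between the tissues of a genotype was tested as an interaction in the same model, on the genes tested in both tables. The numbers of mice and samples in the study's methods imply that both tissues came from the same mice, but the labels do not link them. Samples were taken as independent, so this pairing was not modeled. In B6 0 members were called for tissue by treatment at an adjusted p below 0.05, while 4.77% of all genes were, and in CAST 0 were called against 3.37%. In F1 0 members were called against 1.69%, with a lowest adjusted p of 0.0559 for Ndufa9. Unadjusted p-values below 0.05 were found for 3 members in B6 (3.49%, against 17.3% of all genes), 6 in CAST (6.98%, against 16.6%) and 49 in F1 (57.0%, against 13.4%). In F1 the median difference of the Log2FC, liver less kidney, was −0.92 over the 86 genes and negative in 82, where it was −0.06 in B6 and −0.08 in CAST. Alternatives called more in F1: DESeq2 25 members, the fit without F1 liver control 2 also 25, that without F1 liver TM 1 10, and that without the 3 libraries rich in receptor reads 37. DESeq2 called Sdha in B6 and Atp5s and Uqcrc2 in CAST, and edgeR called 0 in each genotype. Without the receptor-rich libraries 7 were called in B6 (Atp5s, Cox7a1, Cox7b, Ndufa5, Ndufs1, Sdha and Sdhd), and without B6 liver control 2 alone 4. Leaving out CAST liver control 2 gave 1 call in CAST.

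Differences between genotypes were tested in the same way within each tissue. For genotype by treatment 0 members were called in liver (0.0129% of all genes were) and 0 in kidney (0.0821%). At an unadjusted p below 0.05 there were 0 in liver and 14 (16.3%, against 5.49% of all genes) in kidney. edgeR and DESeq2 also called 0 in both tissues. The contrast between F1 kidney and the kidneys of its parents is therefore described by the medians above and did not pass the adjusted test for any gene.

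With all libraries, the 13 protein genes of the mitochondrial genome gave a different picture from the nuclear ones in the F1. Their median Log2FC was −0.44 in B6 liver, −0.56 in CAST liver and −0.15 in F1 liver, and −0.14, −0.38 and −0.40 in B6, CAST and F1 kidney. In F1 liver, where the nuclear genes were lowest (−0.77), 9 of 13 were negative. In F1 kidney, where the nuclear median was 0.10, all 13 were negative and 6 had every TM sample below every control (14.1% of all genes did). Control 1 there, rich in receptor reads, held 13.5% of its reads on these genes, against 8.70% and 8.57% in controls 2 and 3. Some of the negative values rest on it. mt-Co1 had 477517 in control 1 and 329287 and 336577 in the others, with 427833, 266997 and 373323 in TM. The difference between the sets of genes was not tested. mt-Nd4, a membrane subunit of complex I, was the only one called, in CAST liver, with 2530, 2806 and 2921 in TM and 7304 and 3888 in controls (Log2FC −0.96 ± 0.28, adjusted p = 0.035). mt-Nd5, of the same arm, had the lowest mean Log2FC (−0.49) and mt-Co1, the catalytic subunit of complex IV, the highest (−0.27). In F1 liver mt-Nd5 had 2505 and 10738 in TM and 6796, 2180 and 8627 in controls. Here TM 2 and control 2, both rich in receptor reads, set the ends of their groups, and the Log2FC of 0.04 became −1.61 without them. TM 1, the only TM sample then left, lay below controls 1 and 3 in each of the 13 genes. For example, mt-Co3 had 53298 in it and 89132 and 95345 in these controls, and mt-Cytb 6830 against 11501 and 14497. The contrast with the nuclear genes in F1 liver thus turned on these libraries.

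Nuclear copies of mitochondrial DNA limit these values. For mt-Co2, mt-Co3, mt-Atp6, mt-Nd4l and mt-Nd3, 98.0 to 100% of the 50-base words of the transcript also occur in annotated nuclear pseudogene copies, for mt-Nd4 62.2% and for mt-Co1 51.1%, and for mt-Cytb, mt-Nd1, mt-Nd6 and mt-Atp8 none do. The 9 copies themselves took 0.127 to 2.36% of reads in liver and 1.68 to 6.78% in kidney. Of the genes that share no word with them, mt-Cytb, mt-Nd1 and mt-Atp8 were negative in all 6 comparisons. mt-Cytb lay between −0.56 (CAST liver) and −0.09 (B6 kidney) and mt-Nd1 between −0.61 (CAST liver) and −0.28 (B6 kidney). mt-Atp8 lay between −0.89 (CAST liver) and −0.17 (F1 kidney). mt-Nd6, which also shares none, had 0.03 in CAST liver and −0.04 in F1 liver. Among the nuclear members 47 share no such word with an annotated copy, 13 share over 20% and 1 (Atp5l) over 50%, so counts of the latter may include reads of their pseudogenes.

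The genes that build and run mitochondria around the respiratory chain did not share 1 direction, and no list was tested as a set. Of all genes, 6.45, 10.4, 4.15, 7.77, 4.7 and 2.57% were called lower in the 6 comparisons, in the order used here. The shares called higher were 4.8, 11.1, 3.42, 9.73, 8.69 and 7.54%. Of 77 genes of the mitochondrial ribosome, 1, 3, 3, 8, 1 and 0 were called lower and 1, 2, 1, 1, 2 and 7 higher in B6, CAST and F1 liver and B6, CAST and F1 kidney, with medians of 0.09, −0.02, −0.11, −0.11, −0.15 and 0.27. Mrps18b was called higher in all 6 comparisons (Log2FC 1.30 to 1.74), and Mrpl49 lower in the 3 livers (−1.47 to −2.16). Of 24 genes of protein import, 0, 0, 0, 2, 1 and 0 were called lower and 2, 3, 0, 3, 2 and 3 higher. Tomm40, the outer membrane pore, was called higher in 5 comparisons (0.72 to 1.74), and Hspa9, the chaperone that pulls proteins into the matrix, in CAST liver (0.81) and the kidneys of B6, CAST and F1 (1.07, 1.57 and 1.81). Of 45 to 47 assembly factors outside the symbol rule, 1, 6, 1, 10, 1 and 1 were called lower and 0, 1, 0, 0, 1 and 1 higher. Coa6, a copper chaperone of complex IV, was called lower in B6 liver (−1.49), B6 kidney (−1.26) and F1 kidney (−0.88). Of 14 electron carriers and coenzyme Q genes, 0, 2, 2, 5, 1 and 0 were called lower and 0 higher, with Coq8a lower in CAST liver (−1.37) and F1 liver (−1.47). Cycs, cytochrome c, was called in none.

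Regulators of mitochondrial genes moved in both directions. Ppargc1a, a coactivator of mitochondrial biogenesis, was called lower in the 3 livers (Log2FC −2.64, −4.08 and −2.24 in B6, CAST and F1), where its controls averaged 95.0, 53.2 and 68.2 normalized counts. With edgeR and DESeq2 it was not called in B6 and F1 liver. In the kidneys, where it is more abundant, it had −0.47, −0.52 and −0.55 and was not called. Ppara, a nuclear receptor of fat oxidation, was called lower in all 6 comparisons (−3.49 to −1.36). Nrf1, an activator of respiratory chain genes, was called higher in B6 liver (1.15), CAST liver (0.79) and B6 kidney (0.70), and Gabpa, an activator of the ETS family, in the 3 kidneys (0.63, 0.95 and 0.96). Tfb1m, a methyltransferase of mitochondrial ribosomal RNA, was called higher in all 6 (0.63 to 1.79), whereas Tfam and Esrra were called in none.

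In controls the members spanned a wide range of levels. Per transcript length, Atp5a1 was highest in B6 and CAST (315 and 328 RPKM, reads per kilobase scaled to library size, in liver and 517 and 453 in kidney) and Atp5b in F1 (168 and 332). The highest of the other complexes over the 6 control groups were Cox8a (mean 298 RPKM), Uqcr10 (162), Sdhd (153) and Ndufa1 (111), and the median member lay between 30.0 and 55.3 RPKM in the 6 groups. These means cross tables made with different aligners, and the order was not the same in each. In F1 kidney Cox6b1 had 304 RPKM and Cox8a 269. Kidney controls held more CPM of these transcripts than liver controls: the median ratio ran from 1.276 (CAST) over 1.33 (B6) to 1.97 (F1), and 75, 76 and 85 of the 86 genes were above 1. The F1 ratio is raised by F1 liver control 2. The highest ratios were those of Cox7a1 (9.89, 9.44 and 17.2) and the lowest those of Uqcrq (0.505, 0.473 and 0.608). These ratios cross tables and were not tested. Between F1 and the mean of its parents the median ratio was 0.647 in liver and 0.933 in kidney. It was above 2 for 11 of the 86 genes in liver and 20 in kidney. Cox7c had the highest ratio (5.97 in liver and 17.04 in kidney), and Atp5k had 4.33 and 7.73. The hybrid and its different aligner and genome cannot be told apart there.

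**Figure D5:**
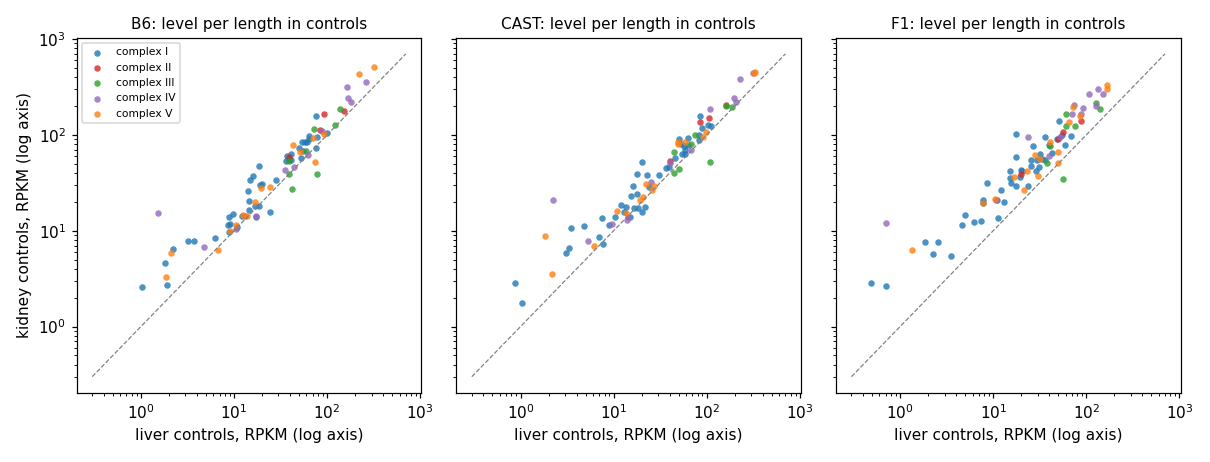
Level per transcript length of the 86 genes in liver controls (x axis, RPKM, log axis) and kidney controls (y axis, RPKM, log axis) of B6, CAST and F1; each point is the mean of a gene over its control samples, colored by complex, and the dashed line marks equal levels. Most points lie above the line, 75 in B6, 76 in CAST and 85 in F1.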

How the data were processed

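RNA from 33 liver and kidney samples was sequenced from TruSeq Stranded Total RNA libraries (Ribo-Zero Gold). Per the study's methods and the submitters' processing notes, B6 and CAST reads went to strain genomes (Bowtie2 2.2.9) and reads of the F1 to a masked B6 genome (STAR 2.6), with SAMtools 1.12. The counting tool and its use of strand are not given in the sources used here, so genes that overlap on opposite strands may share reads. The deposited values are normalized signal: gene counts scaled by the authors with size factors of DESeq2 1.28.1, 1 table per genotype and tissue. Whole reads could be recovered (within 0.01 of a whole number) and gave depth, CPM and RPKM (GENCODE M21 exon lengths). The authors removed outlying samples, which left 3 liver groups with 2 samples each.

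The 86 members, the gene lists and the tests were chosen with earlier results of these data known. TM was compared with control in each table with limma 3.58.1 (trend) on log2(value + 1) for genes with a mean of at least 5, in R 4.3.3. Fold changes on this scale understate those of low genes. Adjustment (Benjamini-Hochberg) ran over all genes tested. Interactions used the same model on 2 or 3 tables, with samples taken as independent. Alternatives were another pseudocount (0.5 or 5), no minimum or 20, TMM, centring on the median, no trend, edgeR 4.0.16, DESeq2 1.42.0, a replicate block and leaving out libraries. The tests were run on simulated counts with the same spread for every gene and no aberrant library. That setting differs from these tables, so it does not show how the tests behave with such libraries. Figures were drawn with matplotlib 3.10.9.

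Genes named with values were those called in at least 3 comparisons, the highest-level and most extreme member of each complex, subunits chosen for their role, 5 mt- genes, and up to 2 of each other list with the largest called change. The values of 1 member are not reported here. Other called members, and the genes singled out within a comparison, were named after their values were seen.

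Same-numbered TM and control samples deviated together in B6 kidney (r of 0.477, 0.253 and 0.252 across genes) and CAST kidney (0.533, 0.252 and 0.368), which was taken as pairing. In F1 kidney 1 pair had an r of −0.0272, and in liver only 2 numbers are shared. The labels do not say what a number stands for, TM and control samples come from different mice, and the main fit used no block.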

Additional observations from a re-analysis of the deposited data

How the results depend on the processing

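Among the calls followed gene by gene, those of Sdhd and Atp5k in CAST liver and of Sdhd, Sdhc and Ndufb8 in B6 kidney held under every alternative run. In B6 liver (2) the count was 0 without the trend, 6 with DESeq2, 43 with a replicate block and 28 (with 1 higher) without the libraries rich in receptor reads. In CAST liver (9) it was 3 with no minimum, 18 with TMM, 2 without the trend and 18 with DESeq2. In F1 liver (3) it was 0 with no minimum, 5 at a minimum of 20, 13 with TMM, 10 after centring, 0 without the trend, 10 with edgeR, 31 with DESeq2, 23 with a replicate block and 59 without the libraries rich in receptor reads. In B6 kidney (11) it was 31 on the adjusted p alone. In CAST kidney (2) it was 0 without the trend, 18 with a replicate block and 1 over structural subunits alone. Tissue by treatment (0 in each genotype) gave 1 in B6 with DESeq2 and 7 without the receptor-rich libraries, 2 in CAST with DESeq2, and in F1 2 at a minimum of 20, 4 with TMM, 5 after centring, 25 with DESeq2 and 37 without the receptor-rich libraries. Of all genes, 13.3% were called lower in B6 liver and 7.05% in F1 liver with a replicate block. In liver this block takes the sample with no same-numbered partner out of the TM effect (B6 control 2, CAST TM 1 and F1 control 3). Its liver counts are therefore not an effect of blocking alone. With TMM the share was 11.6% in CAST liver and 5.93% in F1 liver, and without the trend 0% in B6 and F1 liver. The causes of the other shifts were not tested.

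Leaving out 1 library at a time gave 0 to 18 calls lower in B6 liver, 2 to 15 in CAST liver, 0 to 29 in F1 liver, 8 to 26 in B6 kidney, 0 to 1 in CAST kidney and 0 to 0 in F1 kidney, and 0 to 0 calls higher. The median Log2FC ranged from −0.724 to −0.139, −0.613 to −0.353, −1.03 to −0.545, −0.482 to −0.3, −0.534 to −0.106 and −0.0266 to 0.221 in the same order, so its sign turned only in F1 kidney (without TM 1). Tissue by treatment gave 0 to 4 calls (B6), 0 to 1 (CAST) and 0 to 25 (F1), and genotype by treatment 0 to 0. The sign of mt-Nd5 in F1 liver turned to −1.61 without the receptor-rich libraries. With the replicate block the medians were −0.712, −0.353 and −0.687 in B6, CAST and F1 liver and −0.403, −0.364 and 0.0985 in the kidneys. The liver values equal those found without B6 control 2, CAST TM 1 and F1 control 3, the samples with no same-numbered partner. In liver the numbers were not taken as pairing the samples. Depth limits the low members: Cox7a1 in liver rests on few reads per library.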
